A study of Homo sapiens with 8 samples.

Results

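The genes described here are p53-responsive and growth arrest genes, a list of 32 symbols of which 30 were in the deposited table of 22808 gene symbols. FAS and SPATA18 were not analysed here. The members were measured in RD18, an established human cell line of fusion-negative rhabdomyosarcoma, a soft-tissue tumour of muscle lineage, in 2 groups of 4 libraries each. Vehicle cells received the transfection reagent lipofectamine with no control RNA. Treated cells were transfected with the microRNAs miR-449a and miR-340-5p, and both groups were taken at 60 h. The effect of the 2 microRNAs and that of transfecting RNA at all cannot be told apart. RD18 is 1 clonal line, so the values describe that line.

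As background, p53 is a transcription factor that is held at a low level by the ubiquitin ligase MDM2 and rises after DNA damage and other stress. Its target genes stop the cell cycle, repair DNA, limit oxidative damage or prepare the cell for apoptosis, and some of them feed back to switch p53 off. Many of these genes also answer to other inputs, among them ATF4 and CHOP of the integrated stress response, FOXO factors and immediate early signalling, so a change in a member does not report on p53 itself.

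The sequences of both microRNAs carry the words that could pair with member transcripts, so they are given first. They are mature sequences from RefSeq (GRCh38.p14), with the seed, bases 2 to 8, in capitals. Both are encoded on the minus strand of chromosome 5, miR-449a at 55170586 to 55170607 and miR-340-5p at 180015361 to 180015382.
miR-449a: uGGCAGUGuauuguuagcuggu
miR-340-5p: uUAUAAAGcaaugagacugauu

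The 7-base words complementary to these seeds are CACTGCC and CTTTATA. They were looked for in the longest annotated 3′ UTR of each tested gene (GENCODE 29, GRCh38). Of 28 tested members, 4 held the miR-449a word, a share of 14.3% beside 17.9% of the 10525 tested genes with such a 3′ UTR. The miR-340-5p word was found in 11 of the 28, or 39.3%, beside 19.9%. The median length of these 3′ UTRs was 1915 bases in the members and 1470 bases over all, and longer 3′ UTRs hold more words. A word is a match of letters and was not shown to be a site of action.

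MDM4, which encodes a relative of MDM2 that inhibits p53, held 5 copies of the miR-449a word, all of them followed by an A. They are shown because only 5 of the 10525 genes held as many. All lie in the 3′ UTR on the plus strand of chromosome 1, at 204549247 to 204549253, 204553242 to 204553248, 204553935 to 204553941, 204553969 to 204553975 and 204554556 to 204554562, in the order printed. Capitals mark the word.
MDM4 word at UTR base 547: tctgatatCACTGCCatacctg
MDM4 word at UTR base 4542: tttttactCACTGCCactaaac
MDM4 word at UTR base 5235: agcctccaCACTGCCactaact
MDM4 word at UTR base 5269: gattgagtCACTGCCaagcatt
MDM4 word at UTR base 5856: gaattttgCACTGCCataggga

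The annotated 3′ UTR of MDM4 used for this count is 9419 bases long, and shorter forms of the transcript would lack most of these copies. The counts are per gene and do not show which form the cells made. The other members with the miR-449a word were TP53INP1, XPC and ZMAT3, each with 1 copy. All 4 were called higher in treated cells, as described below. Among the 1880 tested genes with that word, 531 were called higher and 769 lower. Of the 11 members with the miR-340-5p word, 5 were called higher, 1 lower and the others were not called. Among the 2098 tested genes with that word, 740 were called higher and 716 lower.

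Levels are given in CPM, the usual normalised read count, with library totals adjusted by the trimmed mean of M values, and are compared for each gene between the groups, not between genes. A gene was called where edgeR's quasi-likelihood test gave a Benjamini-Hochberg adjusted p under 0.05 over 12366 tested genes. Totals ran from 2567737 to 5569342 counts per library. No label says that the replicates were separate cultures, so p-values cover only the spread among these samples, which may be technical. All 8 tested markers of the muscle lineage were called lower in treated cells and MYF6 was near 0 in both groups, MYOD1 at 204 ± 21.7 CPM (SD, n = 4) in vehicle and 108 ± 3.72 CPM in treated libraries. No leukocyte or endothelial marker in the table exceeded a mean of 1.49 CPM. The epithelial genes KRT8 and KRT18 were called higher. KRT8 passed the count minimum for testing in 2 vehicle libraries and 4 treated ones, so it was tested only through the treated group. EPCAM and CDH1, also epithelial, were not tested, with treated means of 1.38 and 0.174 CPM. The part of the change in cell state in the results on members was not tested. In bulk RNA, fewer cells that express a gene and less RNA per cell cannot be told apart.

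Of the 30 members in the table, 28 passed the count minimum, 14 were called higher, 6 lower and 8 were not called. The change across the transcriptome was broad: 67.3% of all tested genes were called, 33.4% higher and 34% lower. The members' shares were 50% higher and 21.4% lower. At least 2-fold rises were found in 10 members, beside 12.5% of all tested genes, and at least 2-fold falls in 3, beside 13.1%. All treated libraries lay above all vehicle libraries in 15 members (29.2% of all tested genes) and below them in 5 (29.7%). The median log2 fold change of the 28 was 0.43, against -0.00067 for all tested genes. TNFRSF10D passed the minimum in all 4 libraries only in the treated group, where it was higher, and BTG2 and DDB2 only in the vehicle group. The counts over tested members therefore describe the list and support nothing about p53-responsive genes as a class.

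**Figure D1:**
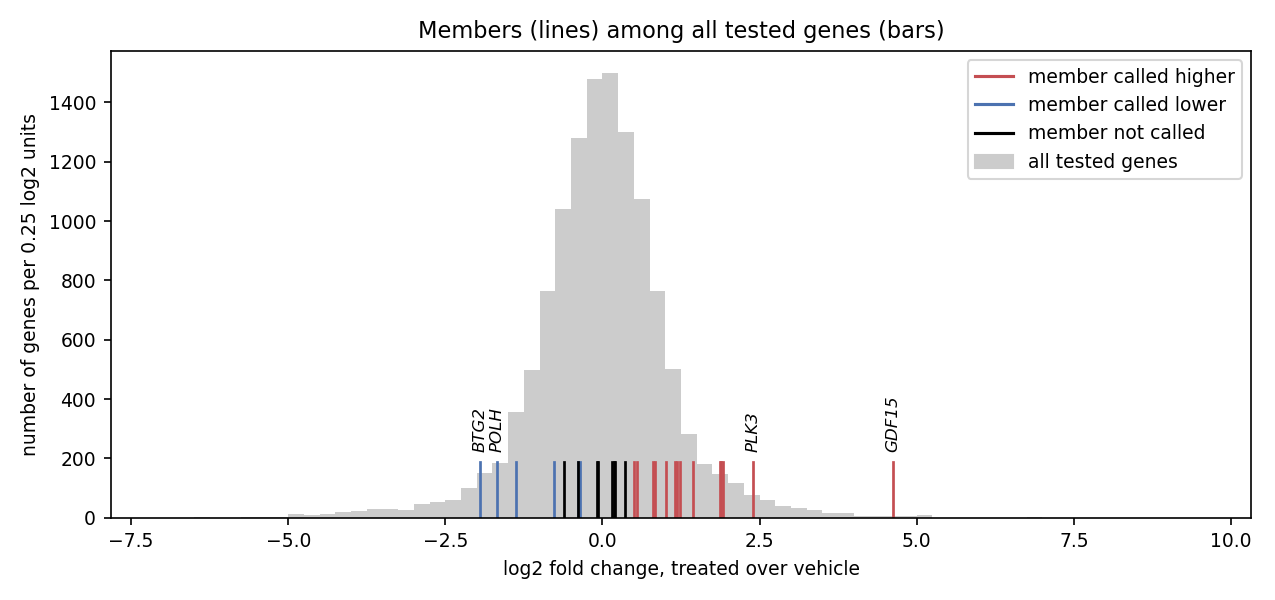
Log2 fold change of all 12366 tested genes (grey bars, number of genes per 0.25 log2 units) and of the 28 tested members (lines, red called higher, blue called lower, black not called). The members spread on both sides of 0, from -1.95 for BTG2 to 4.62 for GDF15.

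The members together reached a higher summed CPM, on the adjusted library totals, in treated libraries. Their summed level was 997 to 1025 CPM in the 4 vehicle libraries and 1900 to 1991 CPM in the 4 treated libraries, 1.93-fold higher. The 5 members with the largest rises in CPM, GDF15, BTG1, GADD45A, TNFRSF10B and PLK2, made up 89.3% of the net rise. They were picked by that rise, so a smaller change in the rest was fixed in advance. The sum of the other 25 was 594 ± 6.32 CPM with vehicle and 694 ± 14.5 CPM in treated libraries (SD, n = 4), 1.17-fold higher. Within groups the members varied little. The median coefficient of variation over the tested members was 12.2% in vehicle and 10.4% in treated libraries, and the largest was 68.4%, for BTG2 in treated cells.

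**Figure D2:**
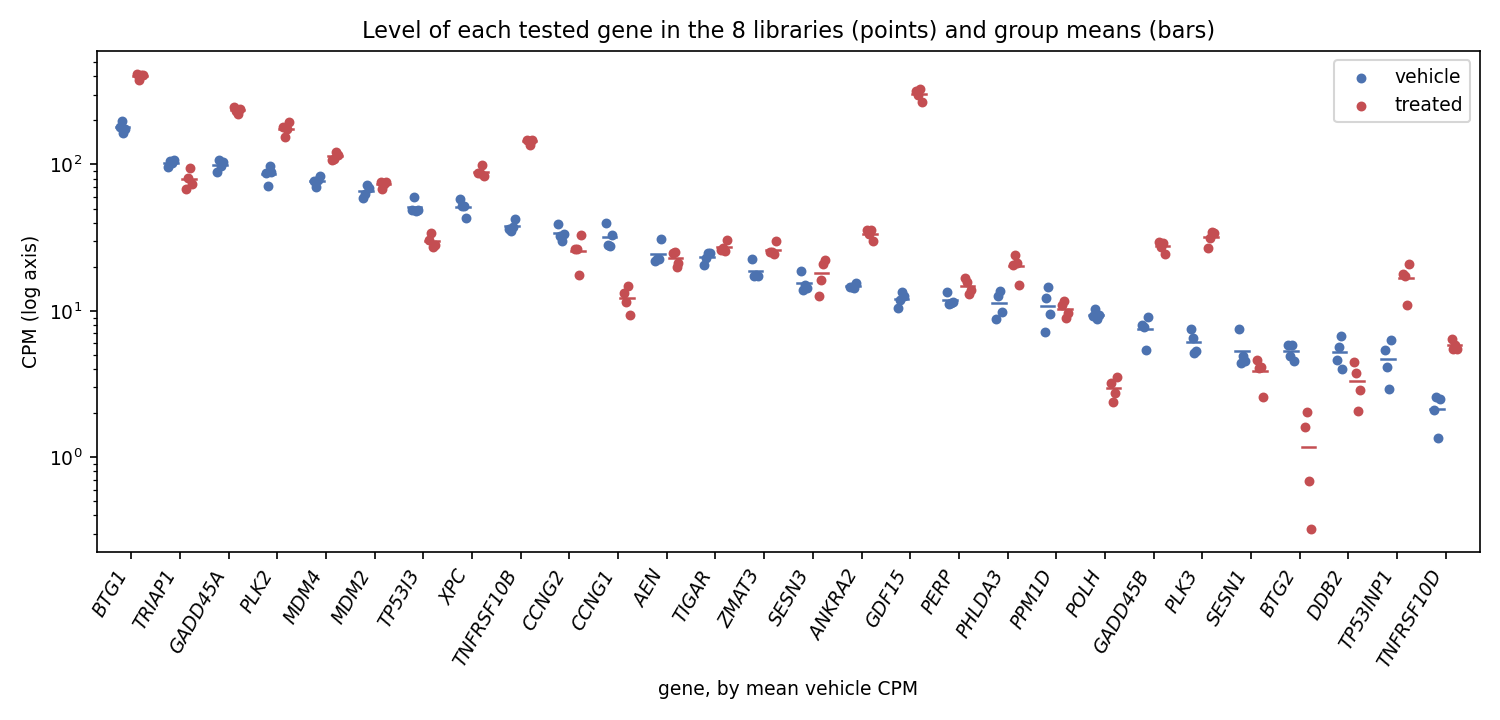
Level in CPM (log axis) of the 28 tested members, ordered by their vehicle mean, with 1 point per library (blue vehicle, red treated) and a bar at each group mean. GDF15 sits at 10.5 to 13.5 CPM with vehicle and 266 to 329 CPM in treated libraries, while TP53I3, CCNG1, POLH and BTG2 lie lower in every treated library.

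Of 3 regulators that feed back on p53, MDM4 was called higher (33.3%, beside 33.4% of all tested genes) and MDM2 and PPM1D were not called. MDM2, a p53 target that encodes the ligase that degrades p53, measured 59.0, 62.4, 71.9 and 69.1 CPM in the vehicle libraries and 75.8, 68.4, 73.7 and 75.3 CPM in the treated ones. The groups overlapped, and MDM2 was not called (log2 fold change 0.15, SE 0.09, adjusted p = 0.15). It was called higher (0.28, adjusted p = 0.0074) where library totals alone set the scaling. MDM4 measured 77.0, 70.2, 78.8 and 83.4 CPM with vehicle and 107, 110, 121 and 116 CPM in treated libraries. Every treated library lay above every vehicle library, a rise of 1.46-fold (log2 fold change 0.54, SE 0.08, adjusted p = 5.33e-08). The log2 ratio of MDM2 to MDM4 within a library fell by 0.39 (exact permutation p = 0.0286, adjusted p = 0.0333 over 7 tested pairs). PPM1D, a phosphatase that dampens p53 and the damage kinases, measured 10.9 ± 3.24 CPM with vehicle and 10.3 ± 1.21 CPM in treated libraries (SD, n = 4) and was not called (adjusted p = 0.708).

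Growth arrest and stress-sensor genes held the largest changes among the members, 6 rises and 3 falls among 9 tested. These shares, 66.7% and 33.3%, stand beside 33.4% called higher and 34% called lower over all tested genes. GDF15, a secreted stress cytokine of the TGF-beta superfamily on chromosome 19 (18374731 to 18389176), measured 10.5, 11.9, 13.5 and 12.6 CPM in vehicle libraries. Its treated values were 318, 297, 329 and 266 CPM. The rise of 24.5-fold (log2 fold change 4.62, SE 0.10, adjusted p = 1.84e-44) put GDF15 at rank 31 among all rises in the 12366 tested genes. No other member exceeded a log2 fold change of 2.39.

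The polo-like kinases PLK2 and PLK3, which respond to stress and, unlike PLK1, are not drivers of mitosis, both rose. PLK3 measured 7.53, 6.47, 5.17 and 5.28 CPM with vehicle and 27.0, 31.4, 34.8 and 33.8 CPM in treated libraries, 5.25-fold higher (adjusted p = 2.92e-18). PLK2 went from 87.0, 71.7, 97.5 and 88.9 CPM to 180, 154, 175 and 195 CPM, 2.03-fold higher (adjusted p = 2.18e-16). Neither gene overlapped between groups, and PLK3 rose by more: the log2 ratio of PLK2 to PLK3 within a library fell by 1.27. An exact two-sided permutation test over the 8 libraries gave p = 0.0286, the smallest the design allows, and 0.0333 after adjustment over 7 tested pairs.

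GADD45A and GADD45B encode small proteins that bind and activate stress kinases upstream of p38 and JNK. GADD45A measured 88.7, 108, 97.0 and 105 CPM with vehicle and 248, 233, 221 and 241 CPM in treated libraries, 2.36-fold higher (log2 fold change 1.24, SE 0.07, adjusted p = 2.38e-23). GADD45B measured 7.95, 7.77, 5.39 and 9.04 CPM with vehicle and 29.6, 27.3, 28.9 and 24.5 CPM in treated libraries, 3.71-fold higher (log2 fold change 1.89, SE 0.18). In both, each treated library exceeded each vehicle library. The log2 ratio of GADD45A to GADD45B fell by 0.58 (exact permutation p = 0.0286, adjusted p = 0.0333). GADD45G, the third gene of the family and not a member, fell from 20.3 to 3.93 CPM (log2 fold change -2.28, adjusted p = 6.23e-14).

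BTG1 and BTG2, related antiproliferative proteins that recruit the mRNA deadenylase CCR4-NOT, moved in opposite directions. BTG1, on chromosome 12 (92140278 to 92145897), measured 181, 200, 165 and 176 CPM with vehicle and 418, 378, 407 and 407 CPM in treated libraries. BTG2, on chromosome 1 (203305491 to 203309602), measured 5.86, 4.92, 5.84 and 4.52 CPM with vehicle and 1.60, 2.05, 0.689 and 0.322 CPM in treated libraries. Neither gene overlapped between groups: BTG1 was 2.23-fold higher (adjusted p = 1.07e-24) and BTG2 3.86-fold lower (log2 fold change -1.95, SE 0.39, adjusted p = 1.32e-05). BTG2 rested on 77 counts over the vehicle libraries and 24 over the treated ones, with 9, 12, 2 and 1 counts in the latter. It passed the count minimum in 4 vehicle libraries and 0 treated ones, so it was tested only through the group in which it was higher. With a prior count of 2, the log2 ratio of BTG1 to BTG2 rose by 3.09, the widest of the tested pairs (exact permutation p = 0.0286, adjusted p = 0.0333). The size of this rise depends on the prior count, since BTG2 had few treated counts.

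Cyclin G1 and cyclin G2, atypical cyclins that act with the phosphatase PP2A, were both called lower. CCNG1 measured 39.7, 28.2, 27.6 and 33.2 CPM with vehicle and 13.3, 11.4, 14.8 and 9.33 CPM in treated libraries, with no overlap (2.59-fold lower, adjusted p = 2.32e-11). CCNG2 measured 39.3, 32.4, 30.1 and 33.7 CPM with vehicle and 26.3, 26.3, 17.6 and 33.2 CPM in treated libraries. Its groups overlapped through treated replicate 4, and the fall was 1.29-fold (log2 fold change -0.37, SE 0.14, adjusted p = 0.0164). The call of CCNG2 was lost on library totals alone (adjusted p = 0.148), without vehicle replicate 1 (0.0632) and without treated replicate 3 (0.0983). CCNG1 fell by more than CCNG2, the log2 ratio changing by -0.95 (exact permutation p = 0.0286, adjusted p = 0.0333). The groups came close, with a ratio of -0.24 in treated replicate 3 and -0.19 in vehicle replicate 2.

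**Figure D3:**
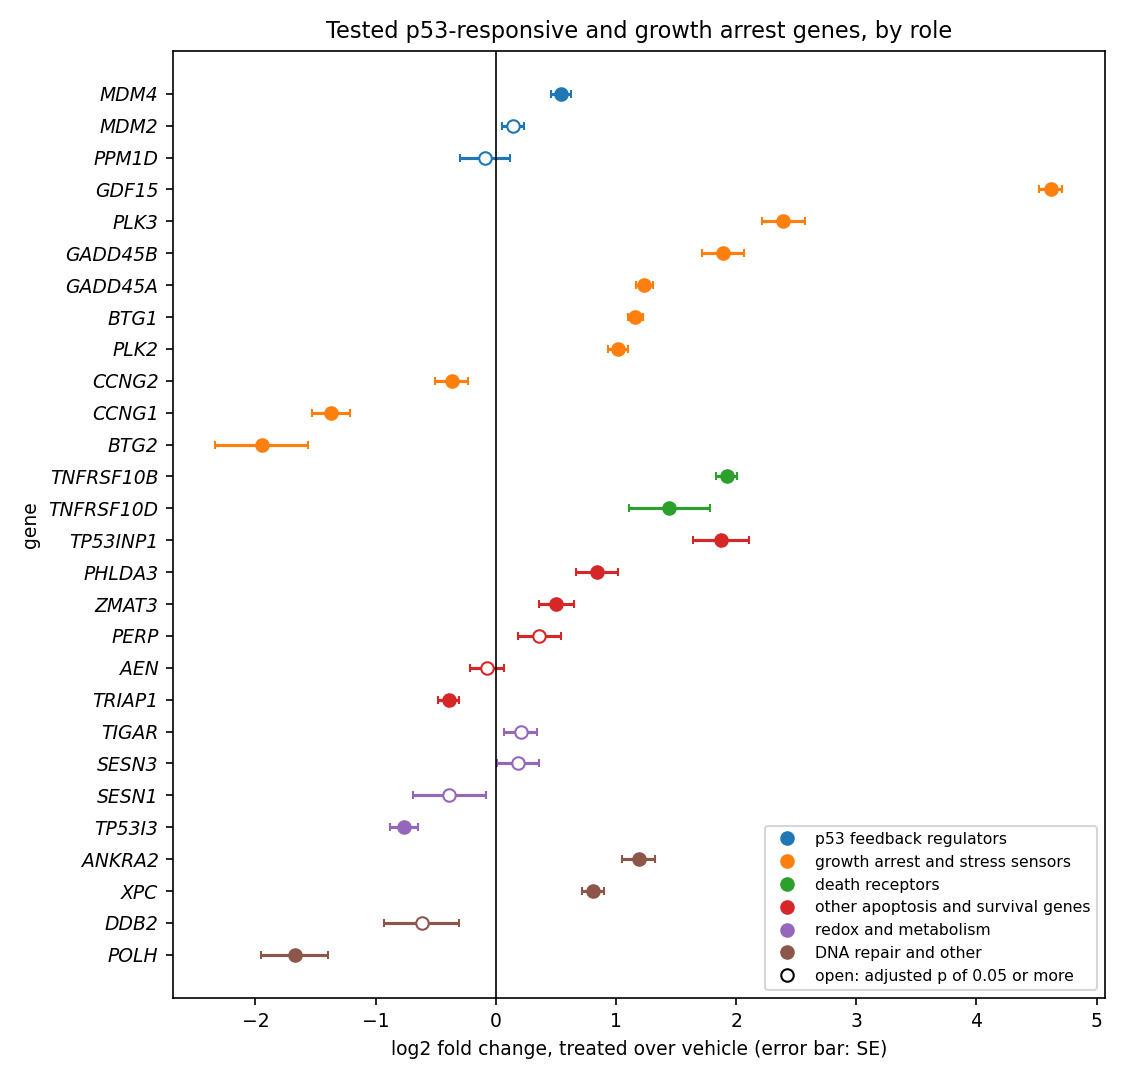
Log2 fold change of each tested member, treated over vehicle, with its SE, grouped and coloured by role. Filled points passed an adjusted p of 0.05 and open points did not. TNFRSF10B and TNFRSF10D lie above 0, while growth arrest genes run from -1.95 to 4.62.

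Of 3 receptor genes for TRAIL among the members, TNFRSF10B and TNFRSF10D were tested and called higher, and TNFRSF10A was not tested. Over all tested genes, 33.4% were called higher. TNFRSF10B encodes DR5, a receptor for the ligand TRAIL with an intracellular death domain, and lies on chromosome 8 (23020133 to 23069179) beside TNFRSF10A and TNFRSF10D. It measured 36.0, 35.2, 37.3 and 42.7 CPM with vehicle and 148, 144, 135 and 148 CPM in treated libraries, 3.79-fold higher with no overlap (adjusted p = 1.3e-27). TNFRSF10D, a decoy receptor for TRAIL with a truncated death domain, measured 2.09, 2.59, 1.35 and 2.51 CPM with vehicle and 6.39, 5.46, 5.85 and 5.47 CPM in treated libraries. It was 2.72-fold higher (log2 fold change 1.44, SE 0.34, adjusted p = 0.000163), from 31 to 102 counts. It passed the count minimum in 1 vehicle library and 4 treated ones, so it was tested only through the group in which it was higher. The log2 ratio of TNFRSF10B to TNFRSF10D rose by 0.63 with a prior count of 2 (exact permutation p = 0.0286, adjusted p = 0.0333) and by 0.50 with a prior count of 0.5, where the adjusted p was 0.1.

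TNFRSF10A, which encodes DR4, the other TRAIL receptor with a death domain, did not reach the count minimum. It had 10 counts over the vehicle libraries and 45 over the treated ones, a ratio of 3.78 with an exact 95% interval from 1.88 to 8.4 that covers counting error only. Per library it measured 0, 0.518, 0.674 and 1.26 CPM with vehicle and 3.02, 2.56, 3.10 and 1.29 CPM in treated cells. Treated replicate 4 lay just above vehicle replicate 4. With no filter on low counts it was called higher (log2 fold change 1.88, SE 0.58, edgeR adjusted p = 0.00366).

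Among 6 other genes of apoptosis and survival, 3 were called higher, 1 lower and 2 not called. These shares, 50% and 16.7%, stand beside 33.4% called higher and 34% called lower over all tested genes. TP53INP1, a nuclear stress protein that takes part in autophagy and apoptosis, measured 5.44, 4.14, 2.92 and 6.28 CPM with vehicle and 17.8, 17.2, 11.02 and 20.9 CPM in treated libraries, 3.66-fold higher with no overlap (adjusted p = 3.08e-10). PHLDA3, which competes with AKT for membrane lipids, measured 8.79, 12.7, 13.7 and 9.80 CPM with vehicle and 20.6, 24.1, 21.3 and 15.1 CPM in treated libraries, 1.79-fold higher (adjusted p = 3.35e-05). Its lowest treated library still lay above the highest vehicle library. ZMAT3, an RNA-binding zinc finger protein, measured 22.6, 17.3, 17.5 and 17.3 CPM with vehicle and 25.4, 25.1, 24.4 and 29.9 CPM in treated libraries, 1.42-fold higher (adjusted p = 0.00195).

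TRIAP1, a small survival factor that acts in lipid transfer inside mitochondria, measured 96.2, 106, 102 and 107 CPM with vehicle and 67.6, 80.9, 95.02 and 73.7 CPM in treated libraries. The groups did not overlap, though treated replicate 3 came close to vehicle replicate 1, and the fall was 1.31-fold (adjusted p = 8.8e-05). AEN, a nuclease of apoptosis, measured 24.4 ± 4.34 and 22.9 ± 2.72 CPM with vehicle and treated libraries (SD, n = 4; adjusted p = 0.656). PERP, a tetraspan membrane protein of desmosomes and apoptosis, measured 11.8 ± 1.06 and 14.8 ± 1.66 CPM (adjusted p = 0.0694). PERP was called higher on library totals alone (adjusted p = 0.0132), under upper-quartile scaling (0.0382) and without treated replicate 3 (0.0469).

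No redox or metabolic member was called higher, beside 33.4% of all tested genes. Of the 4 tested, 1 was called lower (25%, beside 34% of all tested genes). TP53I3, also known as PIG3, is a quinone oxidoreductase gene of the p53 apoptosis programme on chromosome 2 (24077433 to 24085861). It measured 48.5, 59.6, 48.3 and 49.2 CPM with vehicle and 30.5, 33.8, 27.2 and 28.0 CPM in treated libraries, 1.7-fold lower with no overlap (log2 fold change -0.76, SE 0.11, adjusted p = 3.3e-08). The sestrin genes SESN1 and SESN3, restrainers of mTORC1, were not called. SESN1 measured 5.35 ± 1.47 CPM with vehicle and 3.85 ± 0.885 CPM in treated libraries (adjusted p = 0.262), and SESN3 15.5 ± 2.23 and 18.01 ± 4.44 CPM (adjusted p = 0.356, SD, n = 4). Their log2 ratio differed by -0.60 with overlapping groups (exact permutation p = 0.114). SESN2, the third sestrin and not a member, went from 14.8 ± 2.50 to 125 ± 11.4 CPM, 8.58-fold higher.

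TIGAR, a fructose bisphosphatase that diverts glucose to the pentose phosphate pathway, measured 20.5, 22.8, 24.7 and 24.9 CPM with vehicle and 25.9, 27.0, 25.5 and 30.3 CPM in treated libraries. All treated values exceeded all vehicle values, yet the difference did not pass (log2 fold change 0.21, SE 0.13, adjusted p = 0.17) except on library totals alone (0.0244). FDXR, the ferredoxin reductase of mitochondrial steroid and iron-sulphur metabolism, did not reach the count minimum. It had 40 counts over vehicle and 35 over treated libraries, a ratio of 0.734. The exact 95% interval, from 0.453 to 1.19, covers counting error only. Per library FDXR had 6, 22, 7 and 5 counts with vehicle and 6, 16, 6 and 7 in treated cells. Vehicle replicate 2 thus held 22 of the 40 vehicle counts. A difference was not detected at this depth.

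Among 4 tested members of DNA repair and other functions, 2 were called higher, 1 lower and 1 was not called. That is 50% and 25%, beside 33.4% called higher and 34% called lower over all tested genes. XPC, the damage sensor of global nucleotide excision repair on chromosome 3 (14145147 to 14178783), measured 58.2, 52.0, 51.9 and 43.2 CPM with vehicle and 87.0, 87.9, 98.8 and 84.0 CPM in treated libraries, 1.75-fold higher with no overlap (adjusted p = 4.37e-11). POLH, the translesion polymerase eta that copies past ultraviolet lesions, on chromosome 6 (43576150 to 43615660), measured 9.20, 10.4, 8.76 and 9.29 CPM with vehicle and 3.20, 2.39, 2.75 and 3.54 CPM in treated libraries. It was 3.19-fold lower with no overlap (log2 fold change -1.67, SE 0.28, adjusted p = 4.32e-07), from 138 to 51 counts. DDB2, the partner of XPC in recognising ultraviolet lesions, measured 4.60, 5.70, 6.74 and 4.02 CPM with vehicle and 4.44, 3.75, 2.07 and 2.90 CPM in treated libraries. The groups of DDB2 overlapped, and it was not called (log2 fold change -0.62, SE 0.31, adjusted p = 0.0755), though it passed without treated replicate 1 (0.0482). ANKRA2, an ankyrin-repeat protein that binds class II histone deacetylases, measured 14.6, 14.5, 14.4 and 15.6 CPM with vehicle and 35.5, 33.3, 35.8 and 29.9 CPM in treated libraries, 2.28-fold higher (adjusted p = 6.88e-11).

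DDB2 was also the member whose promoter window held a complete p53 response element. The element, a pair of 10-base units with a gap of 0 to 13 bases, was searched by its consensus with no mismatch on both strands, in RefSeq windows of 250 bases before to 50 after a gene's start (GRCh38.p14). It is shown because such a match was found in 10 of 27305 genes with a window (0.0366%) and in 1 of the 24 members matched by symbol. In capitals is the element, at chr11:47214979-47214999 on the plus strand, just inside the transcribed part of DDB2.
DDB2 element: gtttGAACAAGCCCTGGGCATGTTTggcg

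A single 10-base unit was found in 5 of the 24 members (20.8%), beside 8.06% of all genes with a window and 7.42% of the tested ones. They were PLK2, SESN1, DDB2, AEN and FDXR, of which PLK2 was called. A composite word of CCAAT-enhancer and ATF factors was searched in the same windows. It was found in 1 of the 24 members, PLK3 (4.17%, beside 4.45% of all genes with a window and 2.59% of the tested ones). Functional p53 elements often lie in introns or farther upstream, outside these windows, so a window with no match says nothing about p53.

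**Figure D4:**
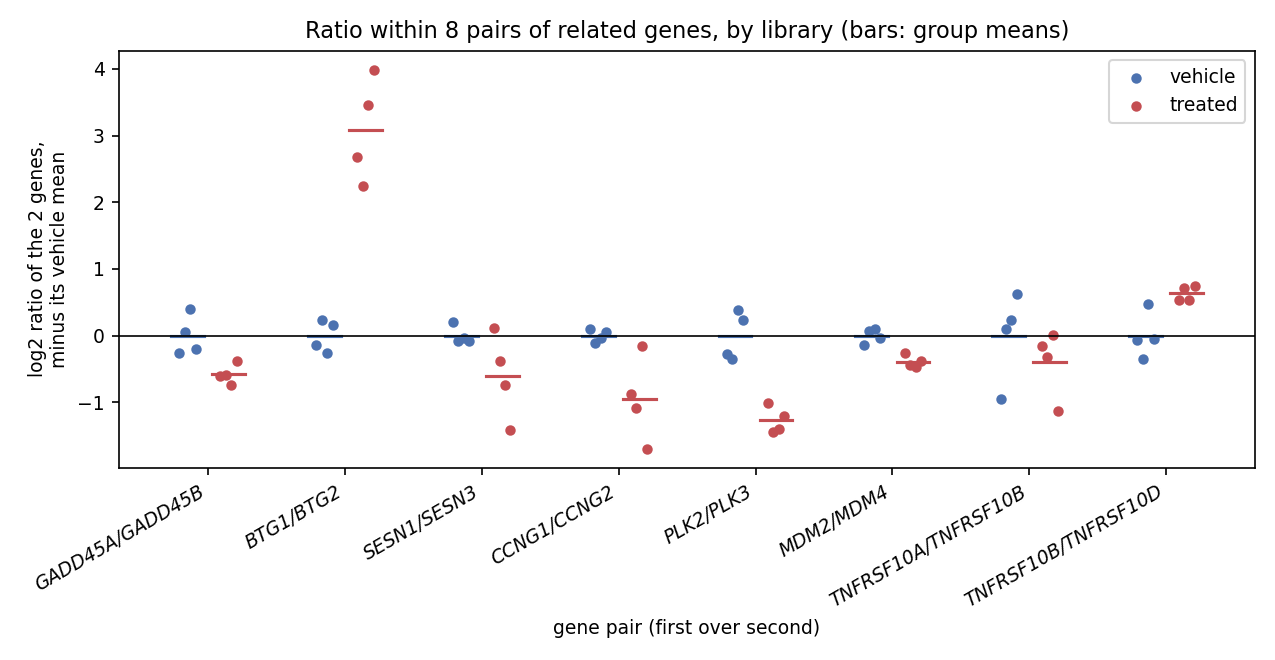
Log2 ratio of the first to the second gene of 8 pairs of related members in each library, minus its vehicle mean (blue vehicle, red treated, bars at group means). With a prior count of 2, the ratio BTG1 to BTG2 rose by 3.09 and PLK2 to PLK3 fell by 1.27. The groups overlap for SESN1 to SESN3 and TNFRSF10A to TNFRSF10B.

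The exons of 13 of the 30 members overlap those of another annotated gene, and for 4 of them that gene was itself tested. It lies on the opposite strand in each of these 4, and its call was opposite too. Over all tested genes, 33.4% were called higher and 34% lower. No share of opposite calls was computed for other overlapping genes, and a link between the calls was not tested. Where POLH was lower, GTPBP2 was higher (log2 fold change 1.80). Where TNFRSF10B, XPC and ANKRA2 were higher, RHOBTB2 (-0.41), LSM3 (-0.70) and UTP15 (-0.53) were lower. The library kit keeps strand, but the strand setting of the authors' counting is not given in the sources used here. How reads in the shared exons were assigned is therefore not known, and the counts of such genes may be affected.

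Like the members, other genes of the p53 pathway moved both ways. Of 53 further pathway genes in the table, 46 were tested, 21 were called higher (45.7%, beside 33.4% of all tested genes) and 13 lower (28.3%, beside 34%). Their median log2 fold change was 0.20. DRAM1 and TRIM22, both called higher, passed the count minimum in 0 vehicle libraries and 4 treated ones. They were tested only through the group in which they were higher. Scaled by library totals alone, the calls split into 24 higher and 9 lower, and those over all tested genes into 4890 higher and 3453 lower. CDKN1A, the p21 gene and a classic p53 target, measured 88.3, 96.6, 89.6 and 96.7 CPM with vehicle and 98.9, 98.1, 113 and 98.8 CPM in treated libraries. All treated values lay above all vehicle values, but the difference of 1.09-fold was not called (adjusted p = 0.152). Scaling by library totals alone (adjusted p = 0.00427) or by the upper quartile (0.0443) made it a call.

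Pro-apoptotic BCL2-family genes of the pathway were higher. PMAIP1, which encodes NOXA, went from 142 ± 4.76 to 509 ± 52.2 CPM, BBC3, which encodes PUMA, from 10.2 ± 2.87 to 45.0 ± 2.76 CPM and BAX from 9.19 ± 1.32 to 20.9 ± 2.91 CPM (SD, n = 4). Their rises were 3.6-fold, 4.32-fold and 2.27-fold, with adjusted p at most 5.12e-08. Among the falls with the smallest adjusted p were GTSE1, a G2 and S phase gene that restrains p53, from 95.7 ± 4.63 to 4.77 ± 0.416 CPM, and EI24, an endoplasmic reticulum protein linked to autophagy, from 151 ± 6.38 to 41.1 ± 5.87 CPM.

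Genes of the integrated stress response were counted beside the members, since GDF15, TNFRSF10B and GADD45A are known to answer to ATF4 or CHOP as well as to p53. Of 17 tested genes of that response, 15 were called higher (88.2%, beside 33.4% of all tested genes) and 1 lower (5.88%, beside 34%). Their median log2 fold change was 1.83, against -0.00067 for all tested genes. CHAC1, called higher, passed the count minimum in 2 vehicle libraries and 4 treated ones, so it was tested only through the treated group. SESN2 is counted both here and among the further p53 pathway genes. DDIT3, which encodes CHOP, measured 15.1, 14.2, 15.3 and 18.1 CPM with vehicle and 248, 220, 244 and 266 CPM in treated libraries, 15.5-fold higher. ATF3 rose from 10.97 ± 1.68 to 114 ± 8.86 CPM, PPP1R15A, also called GADD34, from 36.4 ± 1.93 to 193 ± 7.84 CPM and ATF4 from 306 ± 4.07 to 476 ± 34.3 CPM (SD, n = 4). These values stand beside the rises of the members, and their part in them was not tested.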

How the data were processed

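RNA of 8 RD18 libraries, 4 vehicle and 4 treated, was made into stranded mRNA libraries and sequenced on a HiSeq4000, per the labels' protocols. The authors deposited whole-number read counts per gene symbol. The submitters' processing notes name GRCh38, HTSeq 0.5.3p3, TopHat2 2.0.13, DESeq2 and SAMtools 0.1.19.24, without roles. Neither the annotation nor its strand setting is given in the sources used here.

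Columns were matched to samples by the library code in the labels. edgeR 4.0.16 in R 4.3.3 kept 12366 genes (filterByExpr, minimum count 10, minimum total 15), scaled by TMM and fitted robust quasi-likelihood models with group as the only term, tested two-sided, with Benjamini-Hochberg adjustment over all genes. SEs are log2 fold changes divided by the root of the F statistic. Pairs of related genes were compared by an exact two-sided permutation test of log2 CPM ratios (prior count 2). Replicate pairs differed by more than sampling noise (chi-square per gene from 2.21 to 5.89). Counting limits precision below a few CPM. Scripts were tested on simulated data.

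All members present and 8 related genes were named whatever their values (1 further related gene is not reported here), with up to 4 genes of smallest adjusted p, at a mean of at least 1 CPM, from each of the 2 further lists (p53 pathway and integrated stress response). Members and lists were chosen with earlier results of these data known. GADD45G, DRAM1, TRIM22, CHAC1, the muscle and epithelial markers named and the overlapping genes were chosen after their values were seen. 3′ UTRs of at least 50 bases and gene positions came from GENCODE 29, and promoter windows and mature microRNAs from RefSeq. Alternatives were DESeq2 1.42.0, limma-voom (limma 3.58.1), 2 other scalings, 2 other filters, a replicate block, removal of mitochondrially encoded genes and leaving out each library.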

Additional observations from a re-analysis of the deposited data

Results flagged for a closer look

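Of 84 groups of 4 libraries checked over the named genes and the members' sum, 6 had a library far from the other three, where chance gives about 1 in 20 groups. Vehicle replicate 1 was high for ZMAT3 (22.6 CPM, the others 17.3 to 17.5). Vehicle replicate 4 was high for AEN (30.9 CPM, the others 21.8 to 22.5), and without it the log2 fold change of AEN, not called, turned from -0.08 to 0.07. Vehicle replicate 2 was high for TP53I3 (59.6 CPM, the others 48.3 to 49.2) and low for GTSE1 (88.8 CPM, the others 97.2 to 98.8). Treated replicate 3 was high for CDKN1A (113 CPM, the others 98.1 to 98.9) and low for EI24 (32.4 CPM, the others 43.5 to 44.6).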

How the results depend on the processing

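All 14 members called higher and 5 of the 6 called lower kept their call and direction under each of the 16 alternatives, CCNG2 being the exception given above. Library size alone shifted the median of all genes by 0.14 and that of the members from 0.43 to 0.57, and upper-quartile scaling moved the latter to 0.48. Genes that were never called changed sign near 0. PPM1D did so with library size alone (0.046) and AEN likewise (0.060), and over the fits that left out a library they ranged from -0.22 to 0.084 and from -0.13 to 0.070. Counts of members called over those fits ran from 14 to 15 higher and from 5 to 7 lower. The number of integrated stress genes called lower ran from 1 to 2, the latter without vehicle replicate 3. The ratio of TNFRSF10B to TNFRSF10D lost its call at a prior count of 0.5 (0.50, adjusted p = 0.1). With the replicate block, 14 members were called higher and 6 lower, with a median of 0.41. It changed no member's call. Deviations of same-numbered libraries correlated weakly (0.0135 to 0.0555). The replicate numbers are not stated to mark a shared batch, so they were not taken as pairs. For numbers 1, 2 and 3, however, both libraries correlated best with their own number, a hint from the data and not the design. With 4 libraries a group the exact test cannot go below p = 0.0286; without any 1 library the pair ratios were computed as values with no test.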
